A study of Mus musculus with 31 samples.

Results

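Untreated skin of C3H/HeJ mice with established AA, read here as alopecia areata, was divided by how much hair keratin RNA it held. Of the 31 arrays of the series, 15 were untreated, here meaning 0 weeks in any arm or PBS at 6 or 12 weeks. For each array the log2 values of Krt33a, Krt86, Krtap14 and Krtap15 were averaged, and this mean is called the hair keratin level. The arrays compared were thus chosen by measured values. The 5 arrays with the highest level (high arrays) were compared with the 5 with the lowest (low arrays), and the other 5 lay between them. The series has 3 topical arms, PBS, jak1i and jak3i, with 3 arrays each at 0, 6 and 12 weeks and 2 each at 24 weeks for jak1i and for jak3i. All animals are given as C3H/HeJ and all samples as skin. The 0-week arrays of every arm are taken as skin before treatment, the compounds are known by code only, and dose, sex, age and how the disease arose are not given in the sources used here. Nothing says whether arrays of different weeks came from the same animals or whether replicates were separate animals, so p-values measure only the spread between these samples. The 16 treated arrays (jak1i and jak3i at 6, 12 and 24 weeks) were not used for the ranking. No PBS array at 24 weeks was among the 31.

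Hair is made in the bulb of the follicle, where dividing matrix cells feed the shaft and the inner root sheath that moulds it. Krt33a and Krt86 are hard keratins of the shaft, and Krtap14 and Krtap15 are keratin-associated proteins that cross-link such keratins. In alopecia areata, T cells gather around growing follicles and release interferon-γ, which raises antigen-presenting and chemokine genes in the follicle, and hair shafts break or are shed.

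Promoter sequences are shown for the 2 ranking genes that the RefSeq table holds, and for Irf1 and Gbp2, interferon-γ responders that were higher in the high arrays. Each line holds 250 bases before and 50 after the start of the gene in GRCm38.p6, 5′ to 3′ on the strand of the gene, with a motif match in capitals. Krtap14 (chr16:88826096-88826395, minus strand) and Krtap15 (chr16:88828759-88829058, plus strand) start 2864 bases apart and run away from each other. Irf1 stands at chr11:53769764-53770063 and Gbp2 at chr3:142620413-142620712, both on the plus strand. Irf1 has 2 promoter windows, and the window printed was chosen for holding a motif match.
Krtap14: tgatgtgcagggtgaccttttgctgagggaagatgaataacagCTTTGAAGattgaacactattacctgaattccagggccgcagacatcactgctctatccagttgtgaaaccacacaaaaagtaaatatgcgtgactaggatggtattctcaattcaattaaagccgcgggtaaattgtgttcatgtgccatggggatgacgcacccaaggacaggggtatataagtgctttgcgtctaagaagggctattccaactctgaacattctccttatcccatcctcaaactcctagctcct
Krtap15: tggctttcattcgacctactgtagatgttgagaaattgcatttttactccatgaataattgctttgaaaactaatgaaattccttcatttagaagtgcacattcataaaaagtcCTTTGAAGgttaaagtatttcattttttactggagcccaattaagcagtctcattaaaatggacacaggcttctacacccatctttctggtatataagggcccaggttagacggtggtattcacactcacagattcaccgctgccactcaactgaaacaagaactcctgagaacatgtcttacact
Irf1: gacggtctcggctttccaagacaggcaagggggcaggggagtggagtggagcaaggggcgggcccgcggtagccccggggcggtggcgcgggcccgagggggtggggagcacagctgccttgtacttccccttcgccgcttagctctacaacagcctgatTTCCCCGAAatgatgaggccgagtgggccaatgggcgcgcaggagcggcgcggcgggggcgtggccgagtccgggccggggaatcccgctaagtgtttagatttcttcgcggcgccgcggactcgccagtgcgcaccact
Gbp2: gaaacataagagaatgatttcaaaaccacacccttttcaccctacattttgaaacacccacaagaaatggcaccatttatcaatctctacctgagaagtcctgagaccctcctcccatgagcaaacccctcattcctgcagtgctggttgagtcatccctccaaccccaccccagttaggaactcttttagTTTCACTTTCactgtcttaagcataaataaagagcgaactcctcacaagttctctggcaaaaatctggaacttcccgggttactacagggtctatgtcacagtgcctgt
The capitals mark CTTTGAAG, the LEF1/TCF type of site, in both keratin-associated protein genes, at 207 and 136 bases before the start. They mark TTCNNNGAA, the gamma-activated type bound by STAT proteins, in Irf1 at 90 bases before the start. In Gbp2 they mark the interferon-stimulated response element, searched as GAAA, any 2 bases and GAAA, which lies on the opposite strand as TTTCACTTTC at 59 bases before the start. Both strands were searched, and matches of the latter motifs can overlap. CTTTGAAG was found in 1.66% of all 32851 promoter windows and in 12 of 53 windows (22.6%) of the hair shaft keratin and keratin-associated protein genes. TTCNNNGAA was in 8.3% of all windows and in 7 of the 19 windows (36.8%) of 16 interferon-γ response genes, and the response element in 3.44% and 10 of 19 (52.6%). TTCNNNGAA was also in 10 of the 53 hair windows (18.9%), the response element in 3 of them (5.66%) and CTTTGAAG in 2 of the 19 interferon-γ windows (10.5%). These matches describe letters in a window and are not evidence of binding.

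The hair keratin level ran from 10.11 to 13.13 in the 15 untreated arrays and from 4.27 to 13.59 in the 16 treated ones. The high arrays were jak3i 0W replicate 1 (13.13), PBS 12W replicate 3 (13.07), jak1i 0W replicate 3 (12.94), PBS 6W replicate 3 (12.24) and jak3i 0W replicate 2 (12.05), where W stands for weeks. The low arrays were PBS 0W replicate 1 (11.13), PBS 0W replicate 3 (11.09), PBS 6W replicate 2 (11.07), PBS 6W replicate 1 (10.65) and jak1i 0W replicate 2 (10.11). High and low arrays thus came from mixed arms and times, and the means differed by 1.88 on the log2 scale, or 3.67-fold. The upper edge of the split lay between 12.05 and 11.75, and the lower edge between 11.14 and 11.13, so the low arrays merge into the middle ones. Only jak1i at 0 weeks and PBS at 6 weeks held both a high and a low array. jak3i at 0 weeks and PBS at 12 weeks held no low array and PBS at 0 weeks no high array, so arm and time were not balanced.

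**Figure D1:**
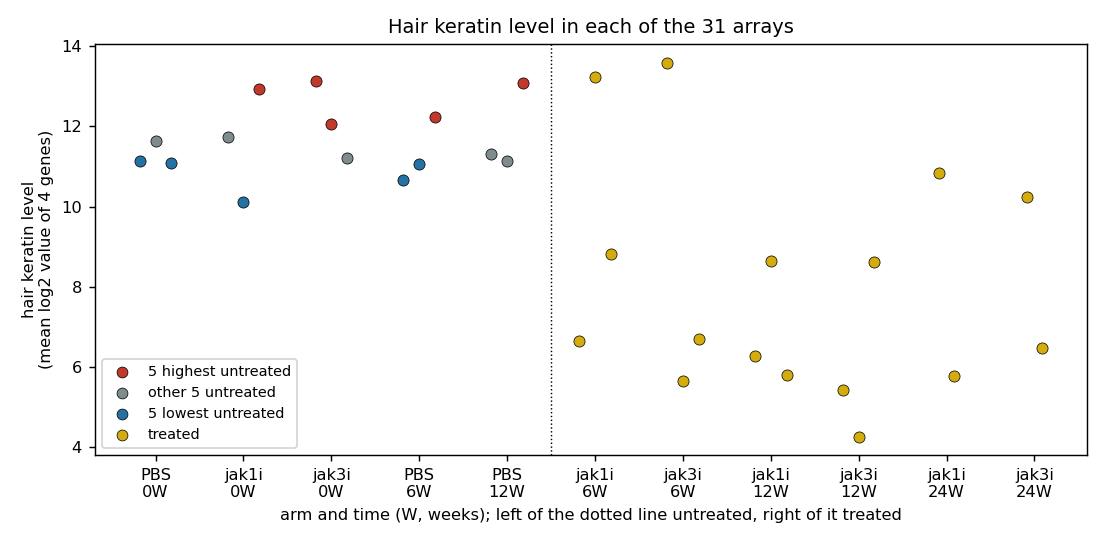
Hair keratin level (mean log2 value of Krt33a, Krt86, Krtap14 and Krtap15) of each of the 31 arrays by arm and time, 1 point an array. Untreated arrays, left of the dotted line, lie between 10.11 and 13.13, with the 5 highest in red and the 5 lowest in blue, while treated arrays spread from 4.27 to 13.59.

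The 15 untreated arrays carried the markers of skin. The basal keratin gene Krt14 lay between 13.41 and 14.05 (log2) in them and the collagen gene Col3a1 between 12.06 and 13.98. Skeletal muscle markers were high in most arrays but low in PBS at 12 weeks, where the mean of 30 muscle genes was 5.67, 8.19 and 6.94 in replicates 1 to 3, against 10.22 or more in the other untreated arrays. Of these only replicate 3 was a high array, and its sarcomere gene Neb stood at 5.60 against 10.55 to 11.31 in the other high arrays and 10.33 to 12.02 in the low arrays. That mean ran from 6.94 to 11.25 in the high and from 10.22 to 11.72 in the low arrays (median difference −1.05, 0 called), and its part in the results was not tested beyond the values given here. Of 12 stress and RNA quality genes 0 were called and 2 had a positive difference (median −0.19), and their mean ran from 9.09 to 9.72 in the high and from 9.57 to 9.84 in the low arrays. Within groups of the untreated arrays 3 of the 12, the immediate early genes Dusp1, Fos and Egr1, fell with the hair keratin level, by 0.44, 0.56 and 0.29 per log2 unit, and the part of these genes in the results was not tested. In whole skin, more cells of a type and more RNA per cell cannot be told apart.

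Higher in the high arrays were 11 of 16 inner root sheath genes, 18 of 29 cell cycle genes, 10 of 20 interferon-γ response genes and 8 of 22 hair matrix genes. The 10 interferon-γ genes included the checkpoint ligand gene Cd274. Another checkpoint ligand gene, Pdcd1lg2, the eosinophil chemokine gene Ccl24 and the protease inhibitor gene Timp1 were also higher. The Langerhans cell gene Cd207, 2 of 16 bulge genes and 4 of 17 sebaceous gland genes were lower. In limma with Benjamini-Hochberg adjustment over all 18193 genes, 382 of the 18143 tested genes (2.11%) were higher and 145 (0.799%) lower at an adjusted p under 0.05, of which 117 and 20 differed at least 2-fold. The high arrays lay wholly above the low ones for 541 genes (2.98%) and wholly below for 320 (1.76%). The remaining 50 genes, hair shaft keratins and keratin-associated proteins, measure the same structure as the ranking genes and are given without a test. Because measured values chose the arrays, each p describes an association among these 10 arrays and not the effect of a condition. With each array centred on its median, 539 genes were higher and 93 lower. The total of 527 ranged from 139 to 703 when single arrays were left out. It was 139 without jak1i 0W replicate 3, 185 without jak3i 0W replicate 1, 195 without jak1i 0W replicate 2, 244 and 246 without PBS 0W replicates 3 and 1, 267 without PBS 12W replicate 3 and 347 without PBS 6W replicate 3.

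Shaft genes were high in the high arrays by construction. Krt33a stood at 13.66, 13.42, 13.52, 12.98 and 12.64 in the high arrays, from the highest level down, and at 12.01, 12.07, 12.19, 11.29 and 11.01 in the low ones. Krtap14 stood at 12.78, 13.04, 12.61, 11.78 and 11.58 in the high and at 10.52, 10.34, 10.39, 10.23 and 9.41 in the low arrays. The differences of the group means were 1.53 for Krt33a, 1.96 for Krt86, 2.18 for Krtap14 and 1.83 for Krtap15. All 10 measured hair shaft keratins of the list that did not rank the arrays had positive differences (median 1.64), from 0.02 for Krt84, a keratin of nail and tongue papillae as well as hair, to 1.97 for Krt81. So had all 33 measured keratin-associated protein genes (median 1.82). The widest of these was Krtap31-1, at 11.06, 11.13, 10.98, 9.19 and 10.27 in the high and 5.42, 5.52, 6.29, 6.37 and 5.19 in the low arrays, a difference of 4.77. The median of the treated arrays was 5.08.

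The inner root sheath rose with the shaft: 11 of its 16 measured genes were higher and 0 lower, with a median difference of 1.47 against −0.0037 over all tested genes. Krt71, a sheath keratin, stood at 12.42, 12.38, 12.30, 12.16 and 11.64 in the high and 10.90, 10.89, 10.34, 10.62 and 10.31 in the low arrays. The groups did not overlap, and the middle arrays ran from 11.03 to 11.68, so that the highest of them passed the lowest high array. The difference was 1.57 ± 0.17 (SE, limma adjusted p = 0.00382), or 2.96-fold. Krt26 and Krt73, further sheath keratins, differed by 1.85 ± 0.32 and 1.37 ± 0.20, and Padi3, which deiminates trichohyalin, by 1.65 ± 0.21. The largest difference was that of the trichohyalin-like gene Tchhl1, 2.32 ± 0.39 (limma adjusted p = 0.0133). Tchh itself, the trichohyalin gene, lay at 0.55 ± 0.17 and did not pass (limma adjusted p = 0.13). The count of 11 kept between 10 and 12 in 22 of 23 alternatives and was 0 in the comparison of the 3 highest with the 3 lowest arrays at 0 weeks only. Of 7 genes of the companion layer and outer root sheath 1, the companion layer keratin gene Krt75, was higher, by 1.23 ± 0.18 (limma adjusted p = 0.00815), while the list median was −0.12 and 3 of the 7 differences were positive.

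Of 22 hair matrix genes 8 were higher and 0 lower (median 0.56). They included the morphogen gene Shh, the BMP decoy receptor gene Bambi, and the transcription factor genes Msx2, Dlx3, Lef1, Cux1 and Foxn1, the last needed for shaft keratin expression, beside Lpar6, a lipid receptor gene linked to woolly hair. Shh stood at 9.46, 9.0, 9.54, 9.58 and 7.98 in the high and 6.63, 7.75, 7.93, 7.82 and 6.36 in the low arrays. The groups did not overlap but nearly met, at 7.98 and 7.93, and the difference was 1.82 ± 0.39 (limma adjusted p = 0.0331). Foxn1 stood at 8.4, 7.78, 8.27, 7.86 and 7.28 in the high and at 6.54, 7.02, 7.34, 6.90 and 6.2 in the low arrays, where 1 low array overlapped, with a difference of 1.12 ± 0.24 (limma adjusted p = 0.0352). Bambi differed by 1.79 ± 0.29 and Msx2 by 1.47 ± 0.27. Hoxc13, which drives shaft keratin genes, lay at 0.70 ± 0.20 and did not pass (limma adjusted p = 0.0986). The count of 8 was 2 without jak3i 0W replicate 1 or jak1i 0W replicate 3, 3 without jak1i 0W replicate 2, 4 without PBS 0W replicate 1, and 5 without PBS 12W replicate 3, PBS 6W replicate 3 or PBS 0W replicate 3. Leaving out any of these 7 arrays also ended the calls of Shh and Foxn1. That of Foxn1 also ended without PBS 6W replicate 1, while Bambi was called in 22 of 23 alternatives. The hair matrix count was 0 at 0 weeks only, 2 with the replicate number as a block and 11 without jak3i 0W replicate 2.

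The genes whose values most resembled the hair keratin level over the 15 arrays were Gprc5d, an orphan receptor gene of hard-keratin cells (Pearson r = 0.989), Tgm6, a transglutaminase gene (0.977), Ly6g6g (0.977), Psors1c2 (0.975) and Padi3 (0.969). Rnf182, Bambi, Ly6g6d, Crym and Sptssb followed, down to 0.960. These correlations describe arrays that share arms and times and carry no test. Sptssb, which steers the chain length of sphingolipid bases, differed between the groups by 2.61 ± 0.39 and Crym, which binds thyroid hormone, by 2.15 ± 0.31. Further large rises were those of the lysozyme-like gene Lyg2 (2.63 ± 0.39), the gluconeogenic gene Fbp1 (2.25 ± 0.28), the cathepsin E gene Ctse (2.11 ± 0.35), the coagulation factor gene F10 (1.96 ± 0.24), Vsig8 (2.07 ± 0.36) and Cryba4 (2.0 ± 0.27). Each of these differences passed in limma with non-overlapping groups.

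**Figure D2:**
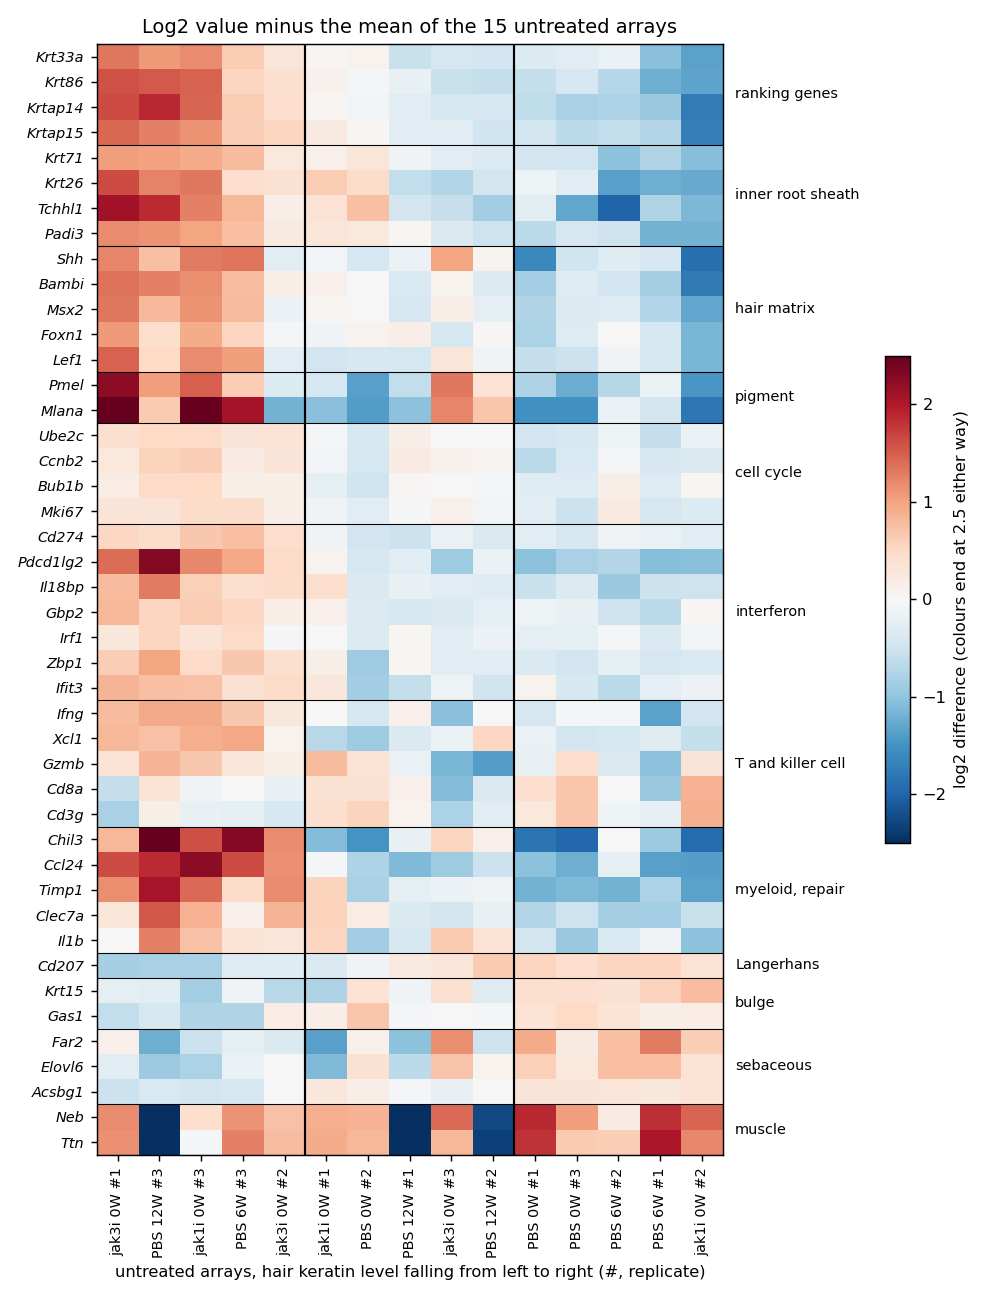
Log2 value of 44 genes minus the mean of the 15 untreated arrays, with the arrays in columns ordered by hair keratin level and black lines around the 5 high, 5 middle and 5 low arrays. Follicle, cell cycle, interferon and myeloid genes are red on the left and blue on the right, Cd207 runs the other way, and the muscle genes Neb and Ttn follow PBS at 12 weeks rather than the order.

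Pigment genes, which melanocytes of the bulb express, differed widely and unevenly. Of 13 melanocyte genes 1, Pmel, which builds the melanosome fibrils, was called (1.88 ± 0.42, limma adjusted p = 0.0372), although the list median was 1.12. Pmel stood at 10.41, 9.24, 9.68, 8.82 and 7.85 in the high and 7.42, 6.94, 7.47, 8.03 and 6.73 in the low arrays, where the lowest high array fell below the highest low array. The tyrosinase gene Tyr (2.38 ± 0.67) and Mlana (2.5 ± 0.70) had larger differences but a wide spread (limma adjusted p = 0.0934 and 0.0912). Without jak3i 0W replicate 2, the high array with the lowest Pmel value, 9 of the 13 were called, and without any array but this one or PBS 6W replicate 1 the count was 0.

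Cell cycle genes were higher in 18 of 29 and lower in 0, and all 29 had a positive difference (median 0.64). Ube2c, a ubiquitin-conjugating enzyme of mitotic exit, stood at 9.91, 10.01, 9.99, 9.84 and 9.84 in the high and 9.04, 9.12, 9.38, 8.92 and 9.36 in the low arrays. The high arrays lay close together and wholly above the low ones, with a difference of 0.75 ± 0.10 (limma adjusted p = 0.00574), or 1.69-fold. The cyclin gene Ccnb2 differed by 0.76 ± 0.12, the kinesin gene Kif20a by 0.74 ± 0.12 and the proliferation marker gene Mki67 by 0.61 ± 0.14 (limma adjusted p = 0.0384). The count of 18 fell to 5 without jak1i 0W replicate 3, 8 without jak1i 0W replicate 2, 9 without PBS 0W replicate 1 or 3, PBS 6W replicate 1 or 3 or PBS 12W replicate 3, and 10 without jak3i 0W replicate 1. It was 7 with the muscle mean as a covariate and 0 between the 7 highest and 7 lowest arrays.

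Of 20 interferon-γ response genes 10 were higher and 0 lower, and all 20 had a positive difference (median 0.60). The called genes were Il18bp, Cd274, Irf1 and 7 genes of interferon-inducible GTPases (Gbp2, Gbp3, Gbp6, Gbp7, Gbp8, Igtp and Irgm1). Il18bp encodes the binding protein that neutralises interleukin-18, and it stood at 9.10, 9.61, 8.91, 8.72 and 8.77 in the high and 7.74, 7.96, 7.39, 7.76 and 7.78 in the low arrays. The groups did not overlap, and the difference was 1.29 ± 0.17 (limma adjusted p = 0.00574), called in 23 of 23 alternatives. Gbp2, a guanylate-binding protein gene whose promoter is printed above, stood at 12.29, 12.01, 12.10, 11.98 and 11.63 in the high and 11.33, 11.28, 10.95, 10.82 and 11.50 in the low arrays. It differed by 0.82 ± 0.15 (limma adjusted p = 0.019), and Gbp8 by 1.07 ± 0.22. Irf1, the transcription factor gene printed above, differed by 0.50 ± 0.11 (limma adjusted p = 0.0436) and was called in 10 of 23 alternatives, its call ending without any array but jak3i 0W replicate 2 or PBS 6W replicate 2. The chemokine genes Cxcl10 (1.09 ± 0.28, limma adjusted p = 0.0663) and Cxcl9 (0.63 ± 0.20, limma adjusted p = 0.142), which draw T cells, did not pass. The count of 10 was 3 without jak1i 0W replicate 3, 4 without jak3i 0W replicate 1, 5 without PBS 6W replicate 3 or jak1i 0W replicate 2, and 6 without PBS 12W replicate 3, PBS 0W replicate 3 or PBS 6W replicate 1. With the muscle mean as a covariate it was 5, and with the arrays centred on their medians 13. It was 2 with the replicate number as a block, between the 7 highest and 7 lowest arrays, and at 0 weeks only.

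The ligands of the checkpoint receptor PD-1 were both higher. Pdcd1lg2, which encodes PD-L2, stood at 8.20, 9.10, 8.0, 7.78 and 7.29 in the high and at 5.78, 6.00, 6.07, 5.74 and 5.77 in the low arrays. The middle arrays (5.91 to 6.90) filled the gap, and the difference of 2.20 ± 0.27 (limma adjusted p = 0.00486) amounted to 4.61-fold. Cd274, which encodes PD-L1, stood at 9.79, 9.74, 9.95, 10.03 and 9.72 in the high and at 9.0, 8.85, 9.19, 9.11 and 8.99 in the low arrays. Its middle arrays (8.75 to 9.19) lay with the low ones, and the difference was 0.81 ± 0.09 (limma adjusted p = 0.00382), or 1.76-fold. Pdcd1lg2 was called in 23 of 23 alternatives and Cd274 in 22, the exception being the 7 highest against the 7 lowest arrays (limma adjusted p = 0.115; range over the alternatives 0.000959 to 0.115).

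Of 19 type I interferon response genes 5 were higher and 0 lower, all 19 with a positive difference (median 0.51). The antiviral genes Ifit3 (0.91 ± 0.14, limma adjusted p = 0.0108) and Ifit1 (0.86 ± 0.19) were among them, whereas Mx1 (0.89 ± 0.23, limma adjusted p = 0.073) did not pass. The count of 5 was 1 without jak3i 0W replicate 1, jak1i 0W replicate 3 or PBS 0W replicate 1, and 3 without PBS 12W replicate 3, PBS 6W replicate 1 or 2 or jak1i 0W replicate 2. Between the 7 highest and 7 lowest arrays and at 0 weeks only the type I count was 0. It was 1 between the 4 highest and 4 lowest arrays and with the muscle mean as a covariate. With the arrays ranked by other hair shaft keratins it was 8. The nucleic acid sensor gene Zbp1, which interferons induce, was higher by 1.0 ± 0.11 (limma adjusted p = 0.00382). Of 12 MHC class I genes 2 were higher, the immunoproteasome subunit gene Psmb10 (0.64 ± 0.10) and the proteasome activator gene Psme1 (0.37 ± 0.08), while the peptide transporter gene Tap1 (0.19 ± 0.13) was not called. The count of 2 was 1 without any array but jak3i 0W replicate 2 (3) or jak1i 0W replicate 2 (2), and Psme1 was called in 8 of 23 alternatives. The class I count was 0 between the 7 highest and 7 lowest arrays and at 0 weeks only. Of 8 MHC class II genes 0 were called, which beside the shares called over all genes is no result about that list.

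The interferon-γ gene itself was among 3 of 20 cytotoxic and NK genes that were higher. Ifng stood at 7.86, 8.01, 8.01, 7.75 and 7.34 in the high and 6.65, 7.04, 7.03, 5.72 and 6.59 in the low arrays. The groups did not overlap, and the difference of 1.19 ± 0.24 (limma adjusted p = 0.0254) was 2.28-fold. The chemokine gene Xcl1, made by activated T and NK cells, differed by 1.10 ± 0.16 and the granzyme gene Gzmc by 1.2 ± 0.22. Gzmb, the main killing protease gene, stood at 10.27, 10.77, 10.59, 10.22 and 10.07 in the high and 9.74, 10.36, 9.57, 8.89 and 10.25 in the low arrays, which overlapped (0.62 ± 0.26, limma adjusted p = 0.256). Gzma lay at −0.66 ± 0.38 (limma adjusted p = 0.444). The list median was −0.04, so the 3 genes did not stand for the list. Their count was 1 without jak3i 0W replicate 1 or jak1i 0W replicate 3. Between the 7 highest and 7 lowest arrays and at 0 weeks only it was 0. The call of Ifng ended without jak3i 0W replicate 1, PBS 12W replicate 3, jak1i 0W replicate 3, PBS 6W replicate 3, PBS 0W replicate 1 or jak1i 0W replicate 2 (limma adjusted p up to 0.104 over all alternatives).

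Of 22 T cell genes 0 were called and 4 had a positive difference (median −0.20). Beside the 2.11% of all tested genes called higher and 0.799% called lower, the count of 0 is no result about the list. Cd8a, the coreceptor gene of killer T cells, stood at 7.30, 8.24, 7.80, 7.90 and 7.71 in the high and 8.32, 8.58, 7.91, 6.96 and 8.78 in the low arrays. The groups overlapped (−0.32 ± 0.31, limma adjusted p = 0.669), as did those of the T cell receptor chain gene Cd3g (−0.60 ± 0.23, limma adjusted p = 0.229). The mean of the T cell list ran from 6.42 to 7.15 in the high and from 6.72 to 7.35 in the low arrays.

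The 2 largest differences of all called genes were those of Chil3 and Ccl24, which belong to none of the gene lists. Chil3, a chitinase-like protein gene of alternatively activated macrophages, stood at 6.58, 8.59, 7.36, 8.03 and 6.93 in the high and at 3.93, 3.79, 5.73, 4.84 and 3.84 in the low arrays, a difference of 3.07 ± 0.45 (limma adjusted p = 0.00802). Ccl24, the eotaxin-2 gene that draws eosinophils, stood at 10.98, 11.21, 11.59, 10.98 and 10.49 in the high and at 8.33, 8.13, 9.12, 7.99 and 7.97 in the low arrays. The groups lay far apart, the middle arrays reached 9.31, and the difference of 2.74 ± 0.24 (limma adjusted p = 0.00204) was 6.69-fold. Timp1, an inhibitor of matrix proteases, stood at 10.48, 11.38, 10.73, 9.78 and 10.50 in the high and 8.14, 8.22, 8.13, 8.54 and 7.98 in the low arrays (2.37 ± 0.24, limma adjusted p = 0.0031). It was the 1 gene called of 12 matrix protease and inhibitor genes, whose median was −0.05. Ccl24 and Timp1 were called in 23 of 23 alternatives and Chil3 in 22. The monocyte chemokine genes Ccl2 (1.57 ± 0.22) and Ccl7 (1.46 ± 0.19) were also higher. Of the 20 listed macrophage genes only 1, the β-glucan receptor gene Clec7a (1.44 ± 0.23), was called, at a list median of 0.41, and 4 were called without PBS 6W replicate 1. The list mean overlapped, from 8.51 upward in the high and from 7.74 to 9.63 in the low arrays. Of 14 neutrophil and myeloid genes 1, Il1b (1.10 ± 0.25), was higher, and of 13 stressed keratinocyte genes 1, Sprr2h (1.3 ± 0.25).

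**Figure D3:**
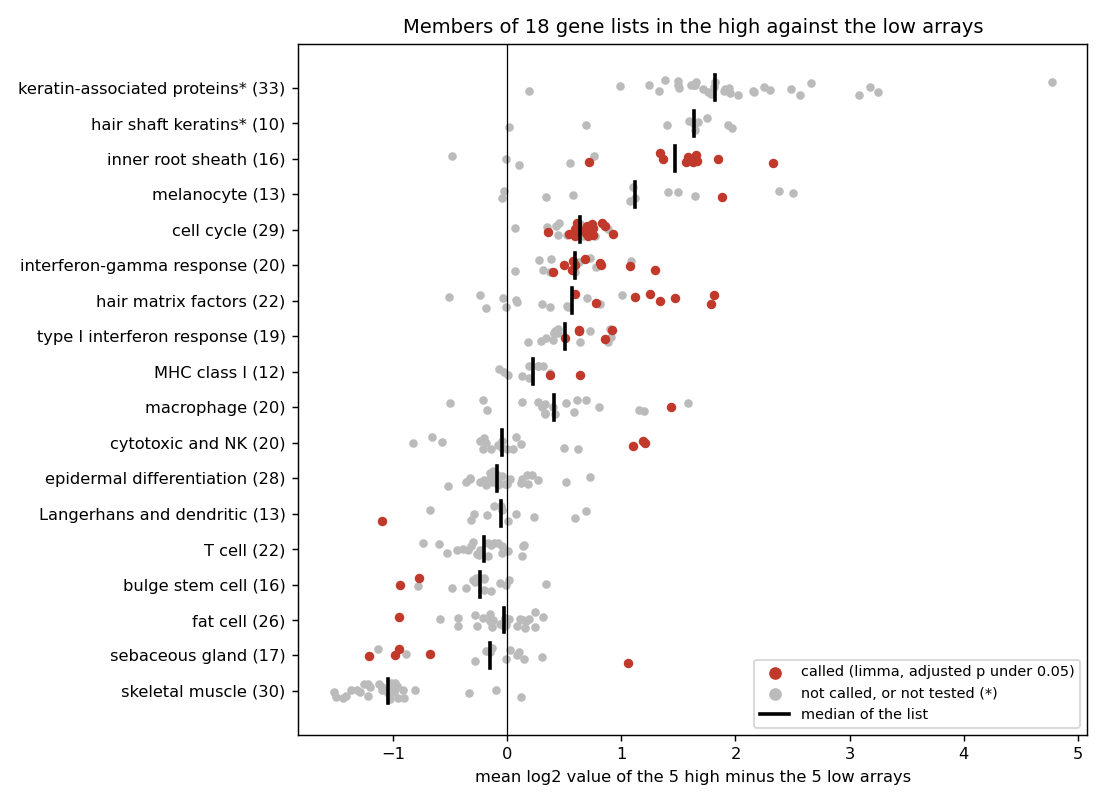
Differences between the 5 high and the 5 low arrays (log2) for the measured members of 18 gene lists, 1 point a gene, with the number measured in brackets, called genes in red and the list median as a black bar; lists with an asterisk were not tested. The medians run from 1.82 for keratin-associated proteins to −1.05 for skeletal muscle, with interferon-γ genes at 0.60 and T cell genes at −0.20. The mean of the muscle list was 6.94 in the high array PBS 12W replicate 3, against 10.22 or more in the other high and low arrays.

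Cd207, the langerin gene that marks Langerhans cells of the epidermis, was lower in the high arrays. It stood at 7.90, 7.91, 7.91, 8.4 and 8.43 in the high and at 9.26, 9.15, 9.26, 9.26 and 9.09 in the low arrays, with middle arrays from 8.36 to 9.38. The groups did not overlap, and the difference was −1.09 ± 0.12 (limma adjusted p = 0.00421), called in 23 of 23 alternatives. It was the 1 gene called of 13 Langerhans and dendritic cell genes. The chemokine gene Ccl22 (−0.68 ± 0.21, limma adjusted p = 0.13) and Epcam (−0.18 ± 0.13), which Langerhans cells share with follicle epithelium, did not pass, and the integrin gene Itgax (0.59 ± 0.19) pointed the other way without passing. The list mean ran from 7.59 to 7.98 in the high and from 7.66 to 7.99 in the low arrays.

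The largest falls were not of one list. Slc38a5, an amino acid transporter gene, stood near the bottom of the scale in the high arrays (4.03 to 4.31) and between 4.53 and 8.51 in the low arrays, a difference of −2.55 ± 0.56 (limma adjusted p = 0.0361) that was called in 9 of 22 alternatives and in none that left out jak3i 0W replicate 1, PBS 12W replicate 3, jak1i 0W replicate 2 or 3, PBS 6W replicate 3 or PBS 0W replicate 1 or 3. Tppp, a tubulin-binding protein gene, fell by 1.38 (SE 0.16, limma adjusted p = 0.00486) and Atp6v1b1, a proton pump subunit gene, by 1.32 (SE 0.16), and both were called in every alternative run on them, 23 and 22. Wfdc21 fell by 1.28 (SE 0.22), the aldehyde dehydrogenase gene Aldh3a1 by 1.23 (SE 0.25), the monooxygenase gene Fmo5 by 1.22 (SE 0.14), and Slc22a4, a transporter of carnitine and ergothioneine, by 1.15 (SE 0.11). Il22ra2, the soluble receptor gene that captures interleukin-22, fell by 1.26 (SE 0.26, limma adjusted p = 0.0307) and lost its call without jak3i 0W replicate 1, PBS 12W replicate 3, jak1i 0W replicate 3, PBS 6W replicate 3, PBS 0W replicate 3 or PBS 6W replicate 1.

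Of 16 bulge stem cell genes 2 were lower and 0 higher (median −0.24). Krt15, the keratin gene of bulge and basal cells, stood at 11.74, 11.71, 11.14, 11.90 and 11.29 in the high and at 12.41, 12.41, 12.36, 12.55 and 12.75 in the low arrays, wholly apart, and fell by 0.94 (SE 0.15, limma adjusted p = 0.0108). Gas1 was the second (−0.77 ± 0.17, limma adjusted p = 0.0363), and its call ended under the centred scale and without any array but jak3i 0W replicate 2. The stem cell genes Lhx2 (−0.01 ± 0.33) and Cd34 (−0.20 ± 0.28) were not called. The bulge count of 2 was 1 without any array but jak3i 0W replicate 2. It was 0 with the replicate number as a block, between the 7 highest and 7 lowest arrays, and at 0 weeks only. With the arrays ranked by other hair shaft keratins the bulge count was also 0. Of 17 sebaceous gland genes 4 were lower and 1 higher (median −0.15). Far2, which makes wax alcohols, stood at 8.64, 7.30, 7.99, 8.28 and 8.16 in the high and at 9.45, 8.74, 9.27, 9.82 and 9.14 in the low arrays and fell by 1.21 (SE 0.25, limma adjusted p = 0.0273). The fatty acid elongase gene Elovl6 fell by 0.98 (SE 0.18), the lipid droplet gene Cidea by 0.95 (SE 0.14) and the acyl-CoA synthetase gene Acsbg1 by 0.68 (SE 0.10), while the desaturase gene Fads2 was higher (1.06 ± 0.19). The sebaceous count of 4 was 2 without jak1i 0W replicate 3, and Far2 lost its call there and without PBS 0W replicate 1, PBS 6W replicate 1 or jak1i 0W replicate 2. At 0 weeks only the sebaceous count was 0, and between the 7 highest and 7 lowest arrays it was 1. Fat cell genes other than Cidea were called in 0 of 25.

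Of 28 epidermal differentiation genes 0 were called (median −0.08), with Krt1 at 0.00 ± 0.24 and Krt10 at −0.08 ± 0.09. Of 21 dermal papilla genes 0 were called, although 19 had a positive difference (median 0.26), up to 1.92 ± 0.58 for Wif1, a secreted Wnt inhibitor gene (limma adjusted p = 0.115). Of 16 circadian genes 0 were called and 2 had a positive difference (median −0.27). Counts of called genes were also 0 of 19 for endothelial, 0 of 11 for mast cell and 0 of 12 for Schwann cell genes. Beside the shares called over all genes, a count of 0 is no result about any list in this paragraph. Of 21 fibroblast genes 1, the elastic fibre gene Mfap4, was lower (−1.15), and of 12 hypoxia and glycolysis genes 1, the carbonic anhydrase gene Car9, was higher (0.88). The growth-phase terminator gene Fgf5 (1.03 ± 0.35, limma adjusted p = 0.161) and Fgf18, the telogen factor gene (−0.21 ± 0.34, limma adjusted p = 0.824), did not pass.

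A slope on the hair keratin level was fitted within the 5 arms and times of the 15 untreated arrays, which takes group differences out and brings in the middle arrays. It rose for 427 genes (2.35%) and fell for 152 (0.838%) in limma. The 2 comparisons share 10 arrays, so their values are set side by side only. Per log2 unit of the hair keratin level, Krt71 rose by 0.76, Ccl24 by 1.36, Pdcd1lg2 by 1.07, Timp1 by 0.95, Il18bp by 0.58 and Cd274 by 0.39, each past the threshold, and Cd207 fell by 0.55. The slopes of Krt15 (−0.37, limma adjusted p = 0.0825), Far2 (−0.49, limma adjusted p = 0.12) and Pmel (0.75, limma adjusted p = 0.0789) did not pass within groups. The 579 calls became 293 and 313 without jak1i 0W replicates 3 and 2, 309 without PBS 6W replicate 3 and 381 without jak3i 0W replicate 1.

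The same slope in the 16 treated arrays, none of which entered the ranking, rose for 1153 genes (6.36%) and fell for 1634 (9.01%). Of the 382 genes higher in the high untreated arrays 206 (53.9%, and 17.9% of the 1153) had a rising slope in treated skin. A falling one was called for 0 of the 382. The treated slope was above 0 for 360 of them, against 8218 of all 18143 tested genes. Of the 145 lower genes 78 (53.8%, and 4.8% of the 1634) had a falling slope there and 4 a rising one. For hair matrix and melanocyte genes more slopes were called in treated skin, while the median slope was lower. Of 22 hair matrix genes 14 had a rising and 1 a falling treated slope (median 0.12), against 9 and 0 in untreated skin (median 0.25). Of 13 melanocyte genes 5 had a rising one (median 0.15), against 2 in untreated skin (median 0.57). The difference between untreated and treated slopes was called for 0 genes of either list, so the lower medians are not shown to differ. The treated slope was 0.75 for Krt71 (limma adjusted p = 0.000354), 1.02 for Tchhl1 and 0.98 for Krt26, and 13 of 16 inner root sheath and 22 of 29 cell cycle genes had rising slopes. Of the interferon-γ list 2 of 20 genes, the chemokine genes Cxcl10 and Cxcl11, had a rising slope in treated skin (list median 0.06), against 9 of 20 in untreated skin (median 0.31). The treated slopes of Ccl24 (0.15, limma adjusted p = 0.295), Chil3 (0.13, limma adjusted p = 0.23), Pdcd1lg2 (0.12, limma adjusted p = 0.271), Il18bp (0.13, limma adjusted p = 0.0638) and Cd274 (−0.02, limma adjusted p = 0.9) did not pass. Chil3 and Pdcd1lg2 lay low on the scale in most treated arrays, which leaves a slope little room. In jak3i 12W replicate 2 they stood at 3.37 and 4.87, where the lowest value of all probe sets was 2.59. The level also ran from 4.27 to 13.59 in treated but from 10.11 to 13.13 in untreated arrays. The part of these limits in the slopes was not tested. The treated fit leans on jak3i 6W replicate 1 and jak1i 6W replicate 2, the treated arrays with the highest level: without them in turn 852 and 1110 genes were called in place of 2787, of which 100 and 128 were among the 382 risers. Without the first of them the slopes of Il18bp (0.22, limma adjusted p = 0.0128) and Timp1 (0.46, limma adjusted p = 0.0231) passed, and that of Cd207 (−0.08, limma adjusted p = 0.083) did not.

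**Figure D4:**
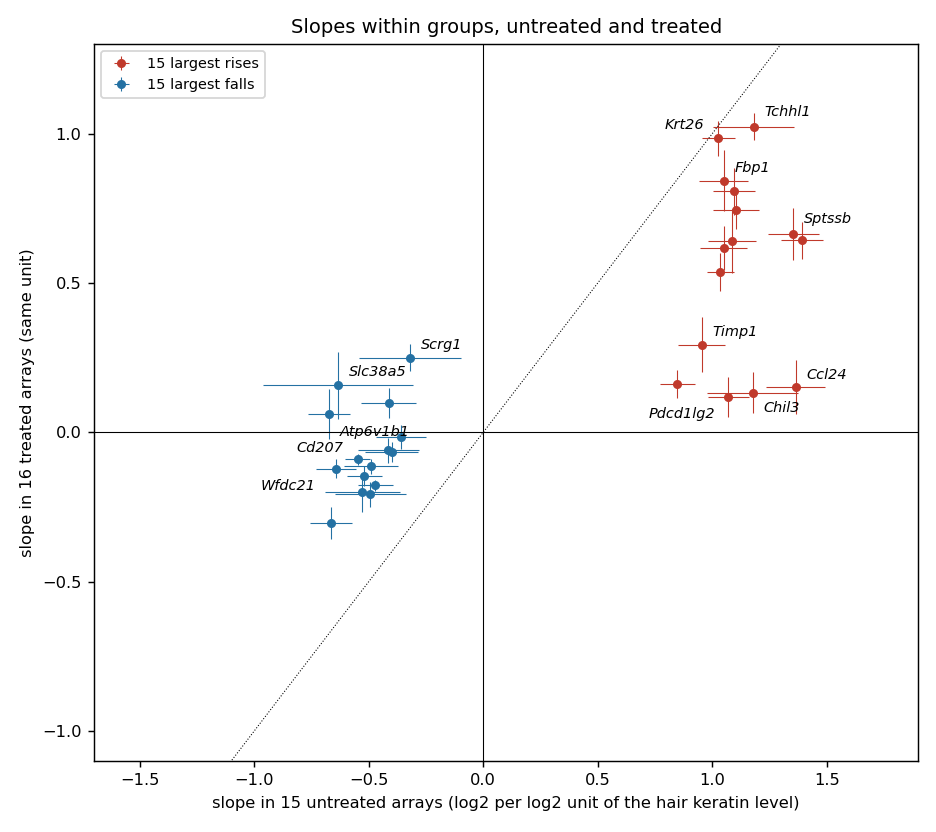
Slope on the hair keratin level within groups (log2 per log2 unit) in the 15 untreated arrays against that in the 16 treated arrays, with standard errors, for the 15 largest rises (red) and 15 largest falls (blue) between high and low arrays; the dotted line marks equal slopes. Tchhl1 and Fbp1 lie near the line, at 1.02 and 0.84 in treated skin, whereas Ccl24, Chil3 and Pdcd1lg2 lie near 0 on the treated axis.

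Single treated arrays with a high level differed from each other. jak1i 6W replicate 2 and jak3i 6W replicate 1 had hair keratin levels of 13.24 and 13.59, at or above the high untreated arrays, and Krt71 stood there at 12.37 and 12.51. Pdcd1lg2 stood at 5.05 and 4.57, Ccl24 at 7.16 and 6.77, Timp1 at 6.95 and 6.63 and Cd274 at 7.55 and 6.00, all below the lowest of the 15 untreated arrays for that gene. Cd207 stood at 8.74 and 8.49, above all 5 high untreated arrays and below all 5 low ones. The treated arrays with the next highest levels, jak1i 24W replicate 1 (10.84) and jak3i 24W replicate 1 (10.25), went the other way. Pdcd1lg2 stood there at 7.37 and 7.46, Ccl24 at 10.35 and 9.18, Timp1 at 10.02 and 8.95 and Cd274 at 9.74 and 9.44, above all 5 low untreated arrays for each gene. Each is a single array of its group, and no test was made on them.

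The slopes themselves differed between untreated and treated arrays for 5 genes (0.0276% of those tested). Cd207 fell more steeply in untreated skin, with a slope of −0.55 against −0.09 and a difference of −0.46 ± 0.06 (limma adjusted p = 0.00357), called in 36 of 36 alternatives. The others were Tnfrsf11b, the osteoprotegerin gene (0.75), Prr15 (0.64), Gpld1, a phospholipase gene (−0.32), and Olah, a thioesterase gene (0.43), each with a limma adjusted p of 0.0418 and called in 10 to 19 of 35 or 36 alternatives. For Ccl24 (1.21, limma adjusted p = 0.0875), Pdcd1lg2 (0.95, limma adjusted p = 0.0661) and Chil3 (1.04, limma adjusted p = 0.13) the difference of the slopes did not pass, although it did in 3, 5 and 2 of 36 alternatives. The count of 5 genes ranged from 1 to 27 when single arrays were left out, with 27 without jak3i 6W replicate 1, 14 without either jak1i array at 24 weeks and 9 without either jak3i array at 24 weeks. No member of the interferon-γ list was called for it, so the lower treated slopes of that list are not shown to differ.

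**Figure D5:**
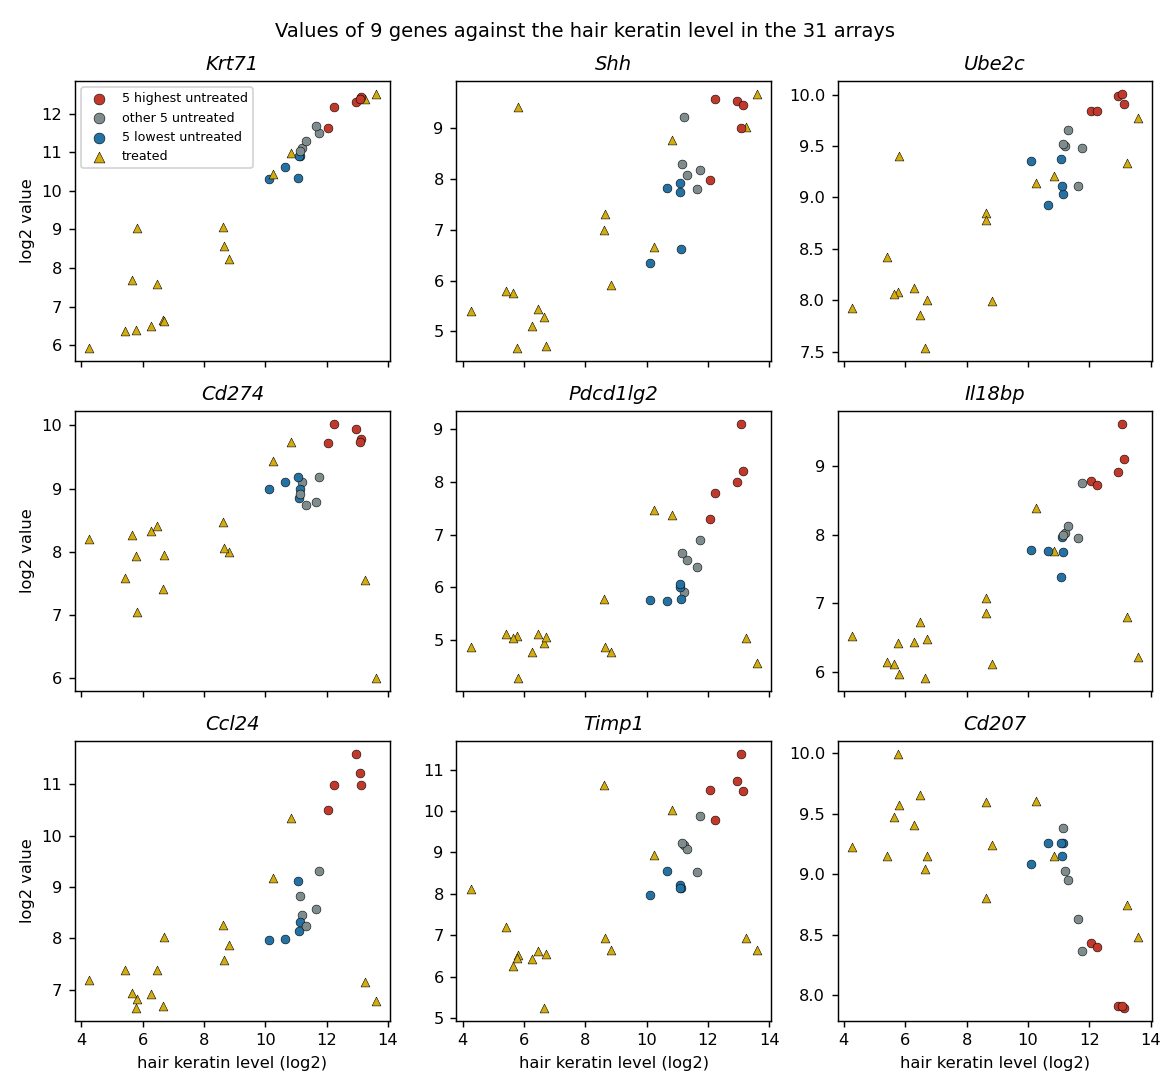
Log2 values of 9 genes against the hair keratin level in the 31 arrays, with untreated arrays as circles coloured by rank and treated arrays as triangles. Krt71 rises with the level in both, with scatter among treated arrays at low levels, while at levels above 13 the treated arrays lie below the untreated ones for Cd274, Pdcd1lg2, Il18bp, Ccl24 and Timp1, and Cd207 falls with the level.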

How the data were processed

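RNA of 31 skin samples was labelled with the 3′ IVT kit and hybridised to Affymetrix arrays, per the labels' protocols. The authors deposited log2 values per probe set, made with RMA (background correction, quantile normalization and summary) per the submitters' processing notes. Quantile normalization forces like distributions on all arrays, so a global shift cannot be seen. Array medians lay between 6.05 and 6.24, no value was missing, and the number of arrays limits the precision. Of 45101 probe sets, 34945 with 1 gene symbol in the platform annotation were used. Each of 18193 genes was represented by its probe set of highest average signal across all 31 arrays.

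The 4 fits (high against low arrays, the slope within groups in untreated and in treated arrays, and the difference of the slopes) used limma 3.58.1 in R 4.3.3, with Benjamini-Hochberg adjustment over all 18193 genes and a threshold of 0.05. Counts are over 18143 genes, without 50 hair shaft and keratin-associated protein genes. Scripts were tested on simulated data.

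The arrays, the members and the 35 gene lists were chosen with earlier results of these data known. The 15 largest rises and falls with non-overlapping groups, 4 members per list with the largest difference, and a set of fixed genes were named by rule. Krt84, Krt73, Dlx3, Lpar6, Ube2c, Ccnb2, Kif20a, Cd274, Irf1, Zbp1, Ifit1, Ccl2, Ccl7, Epcam, Acsbg1, Krt1 and Krt10 fall outside it and were chosen after their values were seen, as were the genes named only to spell out a count.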

Additional observations from a re-analysis of the deposited data

Results flagged for a closer look

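Krtap14 stood at 9.41 in jak1i 0W replicate 2, apart from the other low arrays, the nearest of which was at 10.23. Krtap15 stood at 10.45 in the same array against 11.42 in the nearest. Both genes ranked the arrays, and this array had the lowest hair keratin level of all 15. Neb, a muscle gene, stood at 5.60 in PBS 12W replicate 3, against 10.55 in the nearest other high array. These 3 came from 48 groups of 5 values looked at. Chance sets apart about 5 percent of groups of 5 drawn at random. The groups here were cut by rank on the ranking genes, so that share does not apply to Krtap14 and Krtap15.

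The slope on the hair keratin level differed between untreated and treated arrays in limma, with Benjamini-Hochberg adjustment, for Cd207 (−0.46), Tnfrsf11b (0.75), Prr15 (0.64), Gpld1 (−0.32) and Olah (0.43). Each value is the untreated minus the treated slope, per log2 unit of the level.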

How the results depend on the processing

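The high against low comparison called 527 genes. It called 257 with time as a fixed term, 168 with the 7 highest and 7 lowest arrays, 340 with the arrays ranked by other hair shaft keratins, 66 at 0 weeks only and 181 with the skeletal muscle mean as a covariate. Leaving out single arrays gave 139 to 703. The slope in untreated arrays called 579 genes, 152 at 0 weeks only, and 293 to 684 without single arrays. The slope in treated arrays called 2787, and 852 to 2960 without single arrays. The difference of the slopes called 5, 3 with dim genes left out, and 1 to 27 without single arrays. Of 30 pairs of untreated arrays with the same replicate number, 10 had a correlation of deviations from the group means over 0.1. These correlations ran from −0.475 to 0.626, with a median of −0.076 against −0.013 for pairs with different numbers. They cannot tell whether equal numbers mark the same animal. With the replicate number as a block the counts were 113, 204 and 1 for high against low, the untreated slope and the difference of the slopes. Of 80 called genes followed through the alternatives of the high against low comparison, 0 changed direction. Most alternatives reuse the same arrays, so a kept direction says little. At 0 weeks only 64 of the 80 lost their call, and 44 did with the 7 highest and 7 lowest arrays. With the replicate number as a block 34 lost it, and without jak1i 0W replicate 3 it was lost by 32. The cause of these changes was not tested. Centring the arrays moved the median of all genes from −0.0037 to 0.0536 and the share of higher genes among those called from 72.5% to 85.3%. Where a left-out array left 1 array in a group, that group added no information on the slope.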
